A study of Mus musculus with 4 samples.

Results

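The genes described here are 10 parts of the interferon signalling machinery: the type I receptor chains Ifnar1 and Ifnar2, the type II receptor chains Ifngr1 and Ifngr2, the kinases Jak1, Jak2 and Tyk2, the transcription factor Irf9, and the feedback inhibitors Socs1 and Socs3. They were taken by gene symbol from the 32285 gene rows of 4 single-cell libraries, and each symbol matched 1 row. The libraries hold mouse bone marrow cells positive for CD45.2 and the receptor Kit, collected 10 weeks after a transplantation, from 4 groups named control, Mll3SI, Mll4SI and Mll3/4SI. All groups share the transplantation, the time point and the CD45.2 and Kit selection. Kmt2c and Kmt2d, the genes of MLL3 and MLL4, encode histone H3 lysine 4 methyltransferases that act at enhancers. The labels do not spell out "SI", and give no number, sex or age of animals, no batch and no host strain. Each group is 1 library, so no difference below has a replicate check. The intervals given are 95% intervals that cover counting error only. Where 4 values stand in a row they follow the order control, Mll3SI, Mll4SI, Mll3/4SI.

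Type I interferons bind a receptor made of IFNAR1 and IFNAR2, which activates the kinases TYK2 and JAK1, while interferon gamma binds IFNGR1 and IFNGR2, which work through JAK1 and JAK2. The type I receptor drives assembly of the factor ISGF3, which holds IRF9 and STAT2 and binds interferon-stimulated response elements (ISREs). Gamma-activated sites (GAS) are the elements through which interferon gamma acts. SOCS1 and SOCS3 restrain the kinases, SOCS1 mainly in interferon signalling and SOCS3 mainly downstream of IL-6-type and G-CSF receptors. In the bone marrow, type I interferon is known to drive quiescent stem cells into division, and interferon gamma is known to shift progenitors towards myeloid output.

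All 10 genes are protein coding. In the GENCODE M21 annotation of GRCm38, 3 of the 4 receptor genes lie in a row on the plus strand of chromosome 16 with Il10rb, a chain of the IL-10 and lambda interferon receptors. Ifnar2 is at chr16:91372783-91405589, Ifnar1 at chr16:91485238-91507441 and Ifngr2 at chr16:91547072-91565623, and the stretch from the first base of Ifnar2 to the last of Ifngr2 is 192841 bases long. Ifngr1 is on chromosome 10 (chr10:19591949-19610229), Jak1 on chromosome 4 (chr4:101152367-101265282), Jak2 on chromosome 19 (chr19:29251828-29313080) and Tyk2 on chromosome 9 (chr9:21104068-21131243). Irf9 is on chromosome 14 (chr14:55603571-55610030), Socs1 on chromosome 16 (chr16:10782240-10785536) and Socs3 on chromosome 11 (chr11:117966079-117970047). Ifnar2 shares bases with Gm21970 and Irf9 with the end of Rnf31, each on the same strand. Jak1 overlaps Raver2 and Tyk2 overlaps 1700084C06Rik on the opposite strand. Whether the counting used strand is not given in the sources used here, so reads from such overlaps cannot be told apart.

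The RefSeq promoter windows of all 10 genes (GRCm38.p6, 250 bases before to 50 after a start, both strands searched) were read for the letters of these elements. The ISRE letters GAAANNGAAA stood in 1131 of 32851 windows of all genes (3.44%) and the GAS letters TTCNNNGAA in 2726 (8.3%). Socs1 is shown because it was the member whose window held the ISRE letters, in overlapping copies whose joint run begins 83 bases before the start. Irf9 is shown because it was the member with the largest rise in the Mll3/4SI library. Its window at the more downstream start held neither motif, which says only that these letters are not in this window. Each line gives the 250 bases before the start, 5′ to 3′ on the gene's strand, with motif matches in capitals. The Socs1 bases are chr16:10785537-10785786 on the minus strand. The Irf9 bases are chr14:55604329-55604578 on the plus strand, and they lie inside the annotated Irf9 gene.
Socs1: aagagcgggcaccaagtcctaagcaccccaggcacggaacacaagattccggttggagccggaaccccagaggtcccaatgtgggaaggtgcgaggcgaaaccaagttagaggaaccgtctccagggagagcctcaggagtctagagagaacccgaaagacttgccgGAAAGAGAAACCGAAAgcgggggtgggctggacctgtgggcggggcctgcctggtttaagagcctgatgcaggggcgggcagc
Irf9: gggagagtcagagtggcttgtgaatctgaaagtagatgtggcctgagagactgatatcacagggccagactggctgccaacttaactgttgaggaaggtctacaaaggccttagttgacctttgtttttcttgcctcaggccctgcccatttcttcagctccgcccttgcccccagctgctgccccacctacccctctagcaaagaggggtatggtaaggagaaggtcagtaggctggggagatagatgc
The GAS letters matched once each in the windows of Ifnar1 (TTCACGGAA, 5 bases before the start), Ifnar2 (TTCCTGGAA, 214 bases before) and Socs3 (TTCTTAGAA, 154 bases before). The windows of Ifngr1, Ifngr2, Jak1, Jak2 and Tyk2, and the other Irf9 window, held neither motif. Both Irf9 windows begin downstream of the annotated Irf9 start (chr14:55603571), at 55603735 and 55604329. The bases before that annotated start were therefore not searched.

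The libraries held 7524 to 11678 cell barcodes, of which 6743 to 10186 were kept, with median depths of 12800 to 19172 UMIs (unique molecular identifiers, each counting 1 captured RNA molecule). Pairs of libraries shared 16 to 29 barcodes. Levels are in CPM, UMIs of a gene per 1000000 UMIs of all genes in the same cells. Kit stood at 100.3 to 111.8 CPM and Ptprc, the gene of CD45, at 179 to 313 CPM. Kmt2c ranged from 110.2 to 147.5 CPM and Kmt2d from 33.3 to 41.5 CPM, and these values do not read the alleles. Xist was at 0.0315, 0.194, 1149 and 1358 CPM and the Y-linked Eif2s3y at 63.37, 61.89, 0 and 0 CPM. The sex of the cells and the group therefore cannot be told apart for the Mll4SI and Mll3/4SI libraries. Every library also held cells of 2 hashtag antibodies, and the labels do not say what the hashtags marked. Cells were clustered and clusters named from marker genes. By library, 798, 801, 641 and 305 cells were stem and multipotent progenitor-like (HSC/MPP-like), 4320, 5264, 7992 and 3936 granulocyte-like and 806, 1099, 991 and 333 monocyte-like. Different clusters held most granulocyte-like cells in different libraries: clusters 0, 2, 5 and 7 in control and Mll3SI, clusters 1, 3, 6 and 15 in Mll4SI, and clusters 12, 14 and 24 beside 2 in Mll3/4SI. Of the Mll3/4SI cells, 28.9% fell in unnamed clusters, mainly cluster 10 (led by Cpa3, Ms4a6c, Ly6e and Mpo) and cluster 17 (led by Angpt1, Arhgap6 and Cpa3), which hardly any other cells joined.

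Most of the machinery was expressed at similar levels in all 4 libraries, and 2 genes were called in the large classes, each as 1 of 8 measured members. Irf9, the DNA-binding subunit of ISGF3, was higher in Mll3/4SI than in control in each of the 13 clusters compared with the hashtags pooled. Against control cells of the same hashtag, it was higher in 7 of 10 clusters with Hashtag1 and in 8 of 8 with Hashtag2. Ifngr2, the signalling chain of the interferon gamma receptor, was called lower in the HSC/MPP-like cells of Mll4SI and Mll3/4SI. Both Ifngr2 calls were lost with finer clustering. Both were in the libraries with high Xist, where sex and group cannot be told apart. The Irf9 call, in granulocyte-like cells, was lost when only Hashtag1 cells were compared (0.43, and 0.17 in HSC/MPP-like cells). A member was called when its log2 ratio to control, computed on CPM plus 1, was at least 0.5 in size and its mean over the 4 libraries at least 10 CPM. In HSC/MPP-, granulocyte- and monocyte-like cells 8 of the 10 members reached that mean, and Socs1 and Socs3 did not. In HSC/MPP-like cells 0 of 8 members were called in Mll3SI (background over all genes 1.31%), 1 in Mll4SI (4.26%) and 1 in Mll3/4SI (3.16%), Ifngr2 in both. In granulocyte-like cells 0 of 8 were called in Mll3SI (2.61%), 0 in Mll4SI (11.9%) and 1, Irf9, in Mll3/4SI (8.12%). In monocyte-like cells 0 of 8 were called in each library (0.946%, 3.26% and 2.4%). The 3 comparisons share the control library. Over the members the median log2 ratio in HSC/MPP-like cells was -0.03, -0.08 and -0.05 for Mll3SI, Mll4SI and Mll3/4SI, beside 0.01, -0.01 and -0.05 over all genes. In granulocyte-like cells it was -0.15, 0.06 and -0.19, beside 0.01, -0.09 and -0.10. UMI counts near the 3′ end are not scaled by length, so levels are compared between cells and not between genes.

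**Figure D1:**
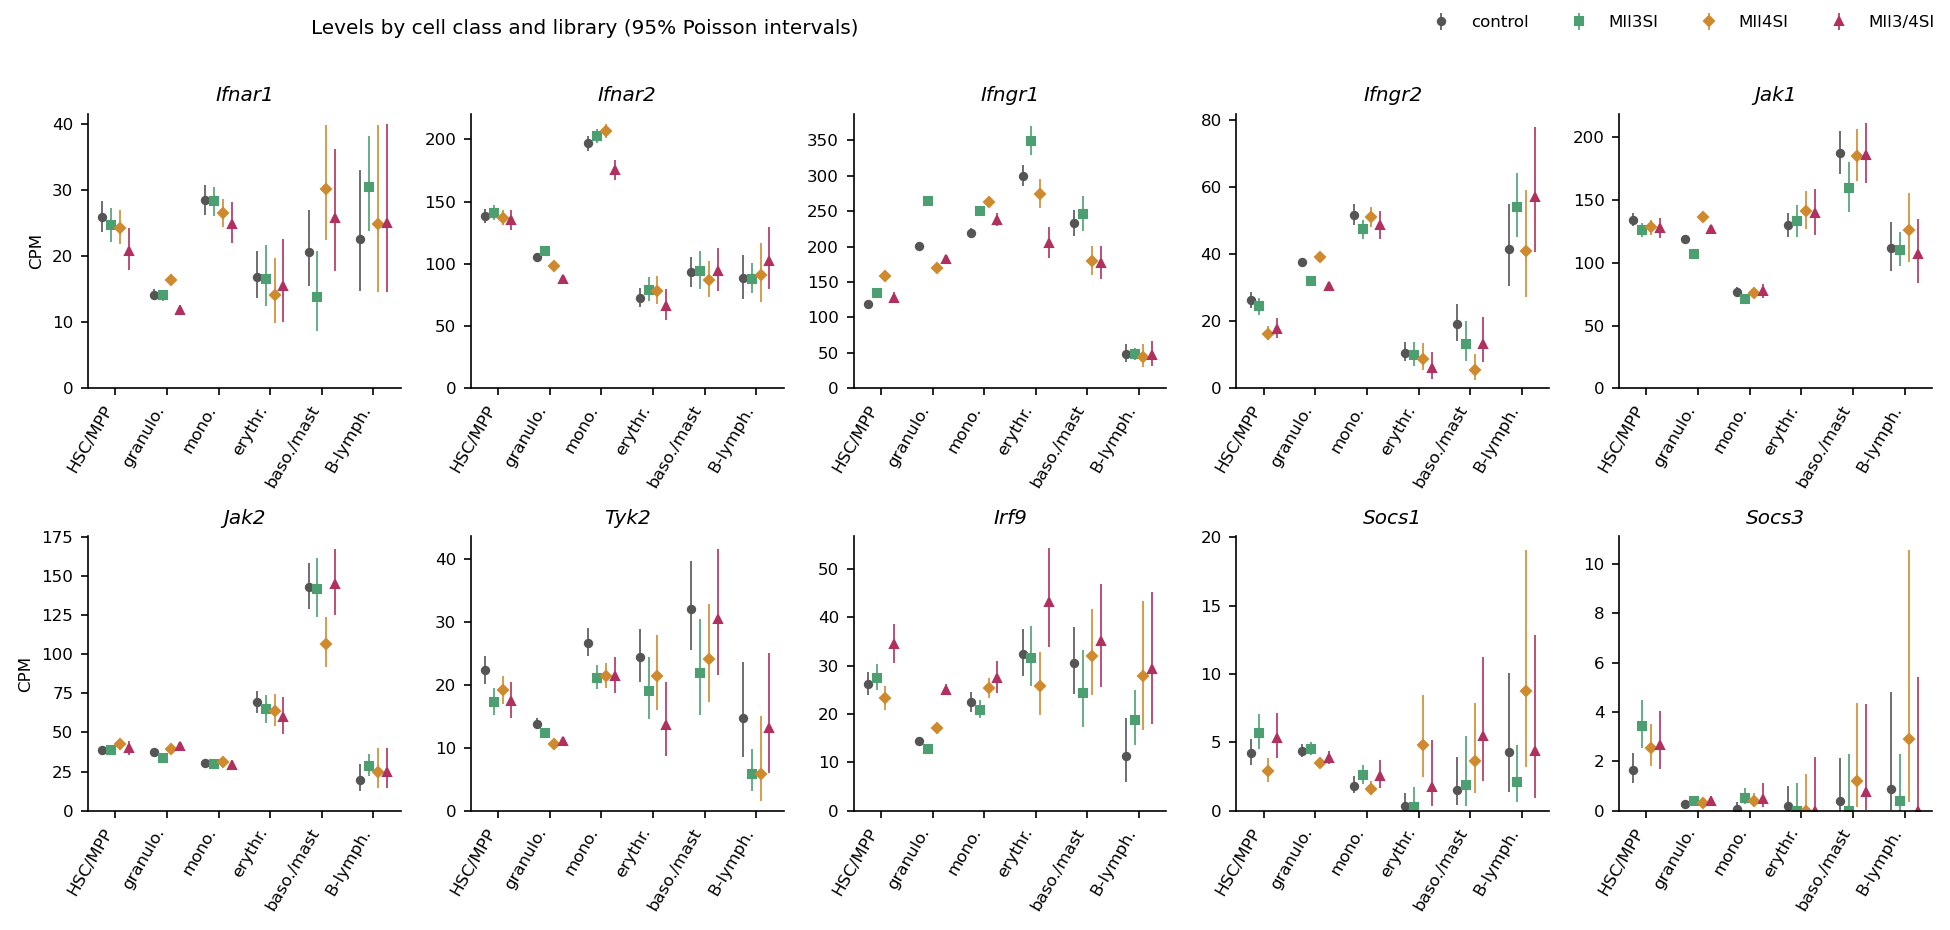
Level of each of the 10 genes (CPM, linear axis from 0) in 6 named cell classes, with 1 point per library and bars for the 95% Poisson interval. Ifnar2 is highest in monocyte-like cells and Jak2 in basophil/mast-like cells in every library, and the Mll3/4SI point for Irf9 lies above the control point in all 6 classes.

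The type I receptor chains differed little. IFNAR2 is the chain that binds type I interferon tightly, and Ifnar2 stood in HSC/MPP-like cells at 138, 141, 137 and 135 CPM. The 4 intervals overlapped. In monocyte-like cells Ifnar2 was at 197, 203, 207 and 175 CPM, the highest of the 6 larger classes in each library, and the Mll3/4SI interval (167 to 184 CPM) lay below the other 3. In granulocyte-like cells it was at 105.7, 110.5, 98.4 and 87.9 CPM, a log2 ratio of -0.26 (interval -0.31 to -0.22) for Mll3/4SI. IFNAR1 is the chain that completes the active receptor. Ifnar1 was at 25.9, 24.6, 24.3 and 20.8 CPM in HSC/MPP-like cells and at 14.2, 14.03, 16.4 and 11.8 CPM in granulocyte-like cells, lowest in Mll3/4SI in both classes. Over clusters with at least 50 cells in both libraries, Ifnar1 was lower in Mll3/4SI than in control in 10 of 13 and Ifnar2 in 10 of 13, with median log2 ratios of -0.12 and -0.09. Neither chain was called in the 3 large classes.

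The ligand-binding chain of the interferon gamma receptor, Ifngr1, depended far more on the type of cell than on the library. In clusters 5 and 7, led by Elane, the gene of neutrophil elastase that is active early in granulocyte development, Ifngr1 stood at 517, 579.8, 638 and 585 CPM and at 503, 529, 569 and 616 CPM. In cluster 3, led by genes of later granulocyte stages such as Ltf and Orm1, it was at 68.9, 83.0, 73.3 and 73.5 CPM. All 4 libraries showed this drop, and within cluster 3 their intervals overlapped. In B-lymphoid-like cells Ifngr1 was at 48.5, 47.8, 43.9 and 46.9 CPM, the lowest of the named classes in each library.

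In the 3 large classes, Ifngr1 differences were below the fold used for calls. The HSC/MPP-like level of Ifngr1 was 118.8, 134, 158 and 128 CPM. Mll4SI was the highest, with a log2 ratio of 0.41 (0.33 to 0.50). In granulocyte-like cells it was at 200.4, 265, 169 and 183 CPM, so that Mll3SI was above control (log2 ratio 0.40) and Mll4SI below it (-0.24). The direction for Mll4SI turned when only clusters 5 and 7 were compared, since Mll4SI was above control in cluster 5 (0.30) and in cluster 7 (0.18). The Mll3SI difference was 0.16 and 0.07 there. In erythroid-like cells Ifngr1 was at 299.9, 349, 274 and 205 CPM, and Mll3/4SI was past the fold (-0.55, interval -0.72 to -0.38). That class held 79 Mll3/4SI cells, and 2 of its 7 measured members (Ifngr1 and Tyk2) were called lower there. Of all genes, 13.1% were past the fold in it in either direction and 9.26% were lower.

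**Figure D2:**
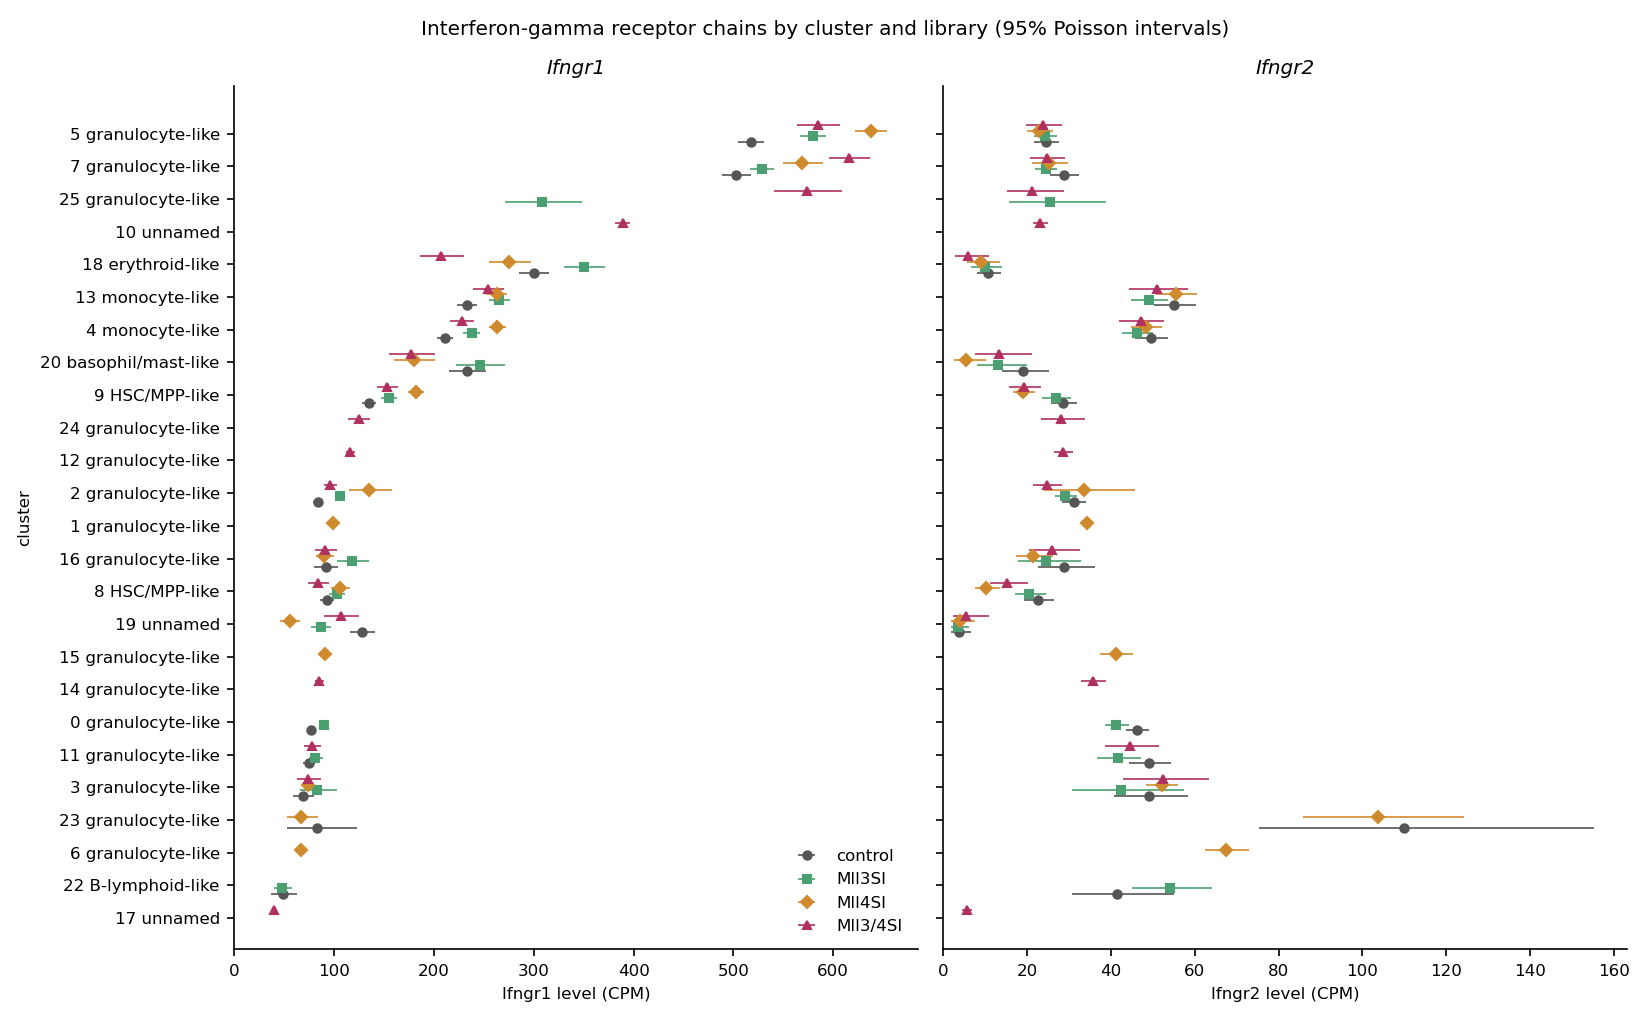
Levels of Ifngr1 (left) and Ifngr2 (right) in CPM in every cluster of adequate depth with at least 50 cells of a library, ordered by the mean Ifngr1 level, with 95% Poisson intervals. Ifngr1 is above 500 CPM in clusters 5 and 7 in all 4 libraries, while Ifngr2 is highest in cluster 23 and lowest in clusters 19 and 17.

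Ifngr2, the chain that brings JAK2 to the receptor, followed another pattern over the cells. In control it ran from 3.74 CPM in cluster 19, an unnamed cluster led by Pf4 and Prkg1, to 110.0 CPM in cluster 23, late-stage granulocyte-like cells led by Retnlg, Mmp8 and Mmp9, whereas Ifngr1 was at 82.5 CPM in cluster 23. In monocyte-like cells Ifngr2 was at 51.8, 47.5, 51.1 and 48.6 CPM, with overlapping intervals. In granulocyte-like cells it was at 37.6, 31.98, 39.1 and 30.5 CPM, a little lower in Mll3SI (log2 ratio -0.23) and Mll3/4SI (-0.29) than in control.

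The HSC/MPP-like cells held Ifngr2 at 26.4 CPM (24.1 to 28.8) for control, 24.4 (21.98 to 27.1) for Mll3SI, 16.35 (14.4 to 18.5) for Mll4SI and 17.8 (15 to 20.9) for Mll3/4SI. The first pair of intervals overlapped, as did the last, and the pairs did not overlap each other. The same pairs differed in Xist and Eif2s3y, as given above, so sex and group cannot be told apart for this difference. The log2 ratio to control was -0.11 (-0.31 to 0.09) for Mll3SI, -0.66 (-0.92 to -0.47) for Mll4SI and -0.54 (-0.85 to -0.30) for Mll3/4SI. Both HSC/MPP-like clusters showed it: cluster 8 was at 22.55, 20.55, 10.2 and 15.2 CPM and cluster 9 at 28.7, 26.9, 19.1 and 19.2 CPM. It was also present with each hashtag. Among Hashtag1 cells Ifngr2 was at 25.3, 23.9, 16.5 and 18.3 CPM, and among Hashtag2 cells at 26.98, 24.97, 13.3 and 16.1 CPM.

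The Ifngr2 calls sat close to the fold. With 5 CPM added in place of 1 the Mll3/4SI ratio was -0.46, and with finer clustering it was -0.30 for Mll3/4SI and -0.50 for Mll4SI, neither called. Summed levels of markers of other cell types differed in these libraries. The 15 granulocyte markers, in HSC/MPP-like cells, summed to 17400 CPM in Mll4SI against 8721 to 8964 CPM in the other libraries, with none at 0, and the 11 basophil and mast cell markers to 547 CPM in Mll4SI and 444 in Mll3/4SI against 262 in control and 184 in Mll3SI, with 2 or 3 at 0. A few markers carried the basophil and mast cell sum: the median marker was at 0.746 CPM (control), 1.677 (Mll3SI), 0.3365 (Mll4SI) and 1.095 CPM (Mll3/4SI). Their part in the Ifngr2 difference was not tested. Granulocyte-like cells themselves held more Ifngr2 than HSC/MPP-like cells in each library. In the basophil/mast-like class itself Ifngr2 was at 19.1, 13.1, 5.42 and 13.25 CPM, from 50, 21, 9 and 17 UMIs. Of 8 measured members in that class, Ifnar1, Ifngr2 and Tyk2 were called lower in Mll3SI, where 5.56% of all genes were lower. In Mll4SI Ifngr2 was called lower (6.04% of all genes) and Ifnar1 higher (6.78%). In Mll3/4SI 0 were called, beside 15% of all genes in either direction.

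Of the kinases, Jak1, which is used by both receptors, differed little between libraries in the 3 large classes. Jak1 stood at 134, 126, 128 and 128 CPM in HSC/MPP-like cells, with log2 ratios between -0.09 and -0.07. In monocyte-like cells it was at 76.95, 70.9, 75.9 and 77.3 CPM. Its level differed more between cell types. It was at 615, 867, 1028 and 707 CPM in the small T/NK-like class of 12 to 47 cells a library. There it was called higher in Mll4SI (0.74), as 1 of 6 called of 9 measured members, with 59.1% of all genes past the fold. In the granulocyte-like cluster 23 it was at 385 CPM in control and 326 in Mll4SI. Over the 13 to 15 clusters compared for each library, no Jak1 ratio reached the fold.

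Jak2, the kinase of the interferon gamma, erythropoietin, thrombopoietin and interleukin-3 receptors, was at 38.7, 39.0, 42.3 and 39.8 CPM in HSC/MPP-like cells and at 30.3, 29.8, 31.0 and 29.0 CPM in monocyte-like cells. The intervals overlapped in both classes. It was highest in basophil/mast-like cells, at 143, 142, 107 and 145 CPM. Over the 22 class and library points with at least 50 cells, the gene whose level followed Jak2 most closely was Ms4a2, the beta chain of the high-affinity IgE receptor (Pearson r 0.966 on log2 CPM plus 1), then Csrp3 (0.953) and Ndst2 (0.939). These points share libraries and the basophil/mast-like class, and the correlation is a description only.

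Tyk2, the kinase bound to IFNAR1, was somewhat lower than control in all 3 other libraries. Its HSC/MPP-like level was 22.3 CPM (20.2 to 24.5) for control, 17.2 (15.2 to 19.5) for Mll3SI, 19.1 (16.95 to 21.5) for Mll4SI and 17.4 (14.7 to 20.5) for Mll3/4SI. Control was the highest, and its interval met those of Mll4SI and Mll3/4SI and not that of Mll3SI. In monocyte-like cells it was at 26.7, 21.1, 21.4 and 21.4 CPM and in granulocyte-like cells at 13.8, 12.3, 10.5 and 11.01 CPM. Tyk2 was below control in 13 of 15 clusters of Mll3SI, 10 of 13 of Mll4SI and 12 of 13 of Mll3/4SI, with medians of -0.33, -0.30 and -0.30. No class ratio reached the fold in HSC/MPP-, granulocyte- or monocyte-like cells. The comparisons share the control, and in HSC/MPP-like cells the control itself was uneven. Its Hashtag1 cells were at 27.6 CPM and its Hashtag2 cells at 17.3 CPM. The latter was close to the 15.3 to 19.2 CPM of either hashtag in the other libraries. In granulocyte-like cells the control hashtags were at 14.7 and 13.2 CPM, above the 10.2 to 12.8 CPM of either hashtag in the other libraries.

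**Figure D3:**
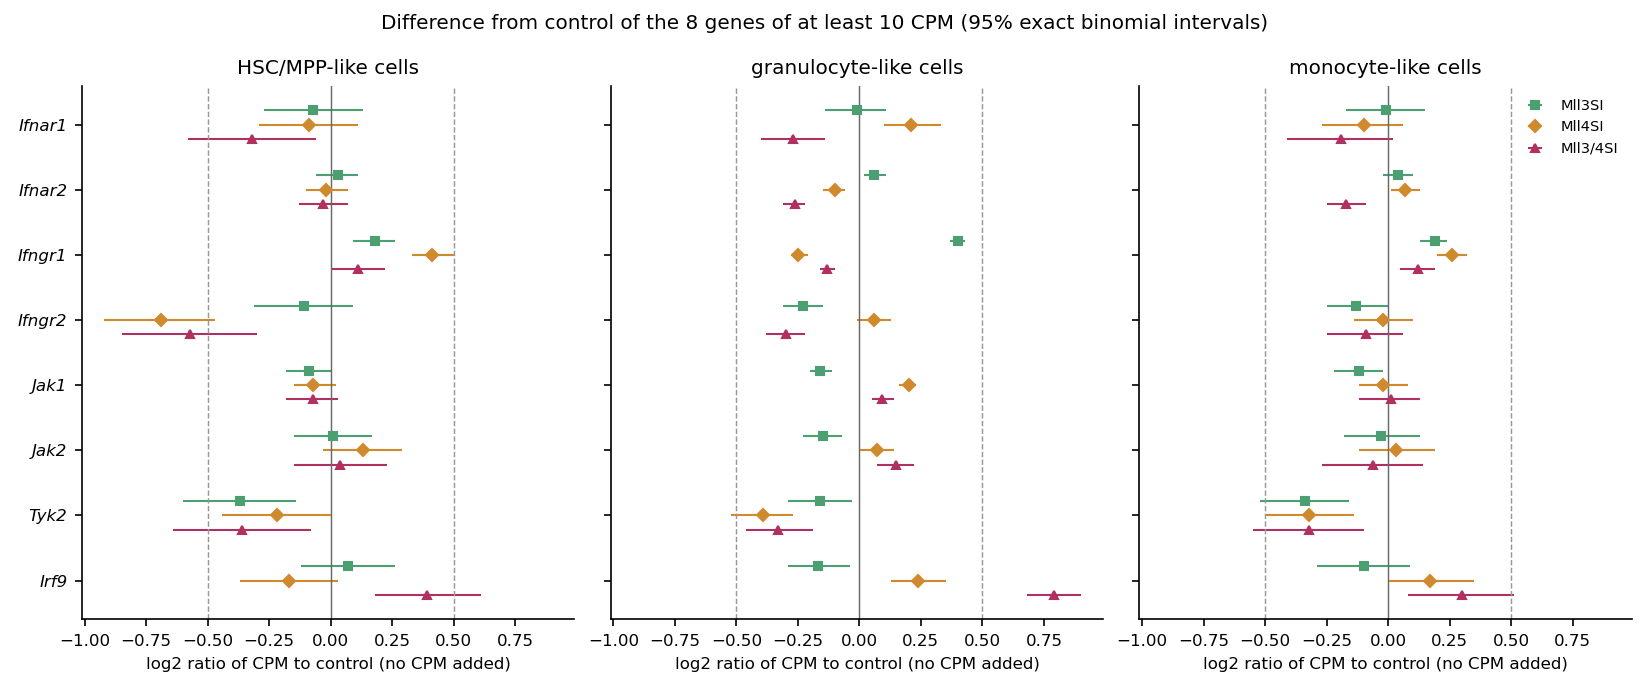
Log2 ratio of CPM to control, without added CPM, for the 8 genes that reached 10 CPM, in 3 cell classes, with 95% exact binomial intervals of the counts. Dashed lines mark 0.5 in either direction: Ifngr2 in HSC/MPP-like cells of Mll4SI and Mll3/4SI and Irf9 in granulocyte-like cells of Mll3/4SI lie beyond them.

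Irf9 rose in Mll3/4SI. In granulocyte-like cells Irf9 was at 14.45 CPM (13.6 to 15.3) for control, 12.9 (12.1 to 13.7) for Mll3SI, 17.1 (16.3 to 17.9) for Mll4SI and 25.0 (23.9 to 26.2) for Mll3/4SI. Mll3/4SI was the highest and its interval met no other. The log2 ratio to control was -0.16 for Mll3SI, 0.23 for Mll4SI and 0.75 (0.68 to 0.90) for Mll3/4SI, and 1.59% of all genes were called higher in that last comparison. Irf9 stood at 26.2, 27.5, 23.3 and 34.4 CPM in HSC/MPP-like cells and in monocyte-like cells at 22.4, 20.9, 25.3 and 27.6 CPM, with Mll3/4SI ratios of 0.38 (0.18 to 0.61) and 0.28 (0.08 to 0.51), both under the fold. Over all kept cells Irf9 was at 18.9, 17.2, 19.5 and 29.3 CPM.

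With the hashtags pooled, the rise was spread over cell types. Irf9 was above control in 13 of 13 clusters of Mll3/4SI, with log2 ratios from 0.19 to 0.86, a median of 0.41 and 5 past the fold. It was above control in 5 of 15 clusters of Mll3SI and 6 of 13 of Mll4SI, with medians of -0.03 and -0.11. Among Hashtag1 cells alone, Mll3/4SI was below control in clusters 2 (-0.08), 5 (-0.35) and 7 (-0.09), and 2 of 10 clusters were past the fold. In clusters 5 and 7 as 1 group the Mll3/4SI ratio was 0.41, without a call, against 0.75 in the whole granulocyte-like class. Other granulocyte-like clusters that both libraries filled had ratios of up to 0.86 (cluster 11). The clusters that Mll3/4SI filled almost alone stood at 44.9 CPM (cluster 17), 29.8 (cluster 10), 28.2 (clusters 12 and 14) and 25.0 (cluster 24). Cluster 17 also had 5.59 CPM of Ifngr2 and 39.7 CPM of Ifngr1, the lowest Ifngr1 level of any cluster and library with at least 50 cells. In the small B-lymphoid-like class Irf9 was at 11.3, 18.7, 27.8 and 29.3 CPM, from 13, 45, 19 and 20 UMIs. Of 7 measured members there, Irf9 was called higher in each library, and Jak2 was also called higher in Mll3SI. Of all genes, 6.64%, 12% and 14.2% were called higher in Mll3SI, Mll4SI and Mll3/4SI.

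**Figure D4:**
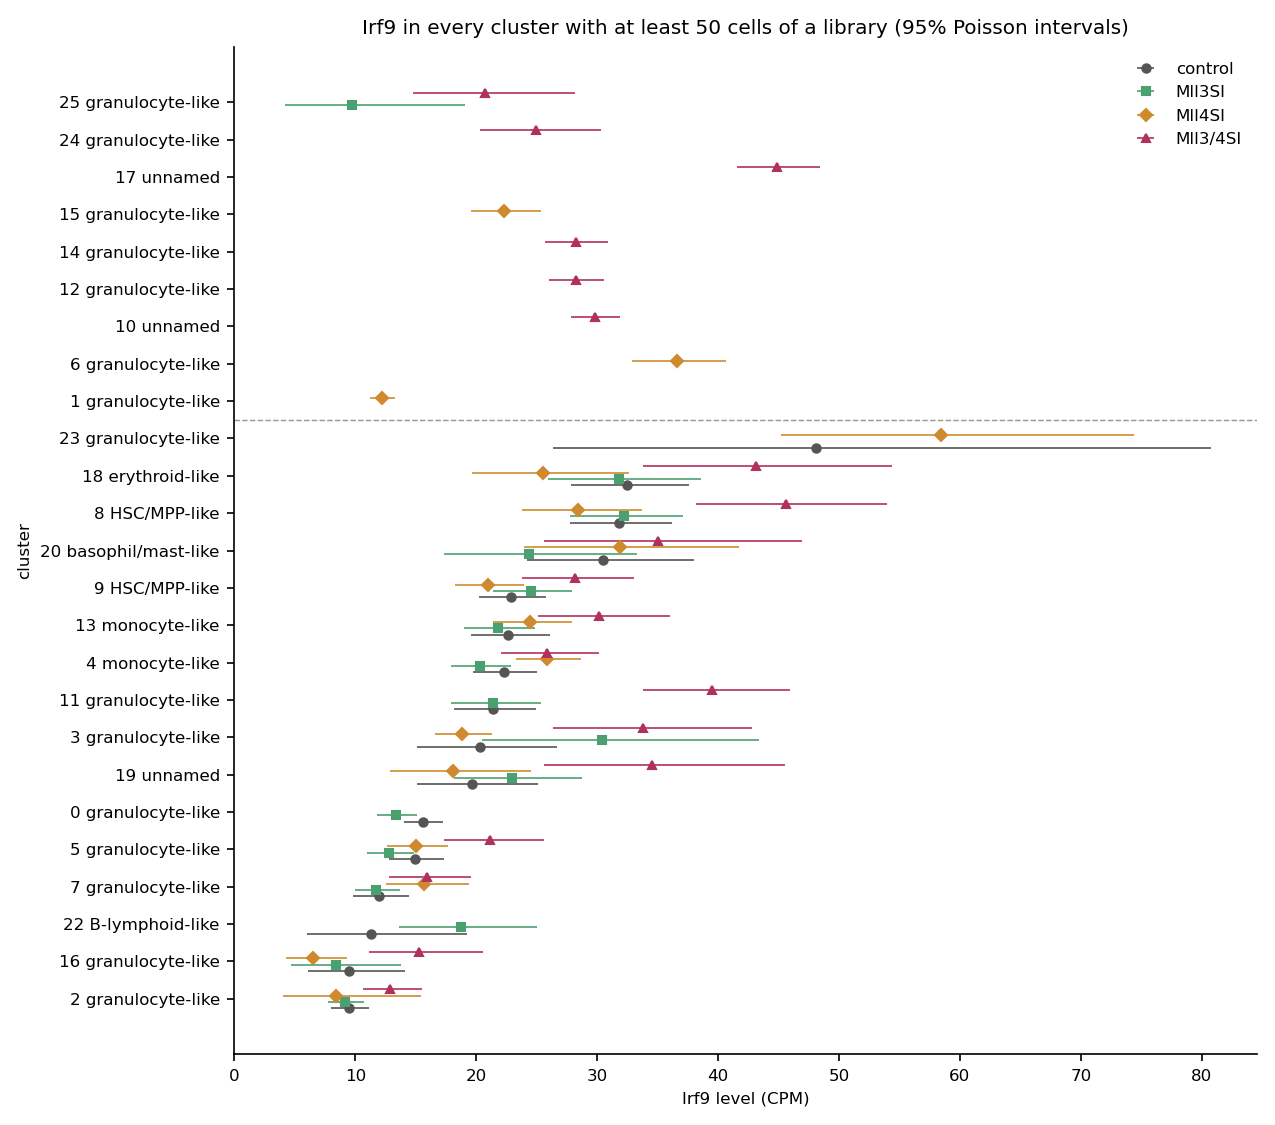
Irf9 level (CPM) by cluster and library with 95% Poisson intervals. Clusters below the dashed line have control cells and are ordered by the control level, and in each of those where Mll3/4SI has at least 50 cells its triangle lies to the right of the control circle.

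Within the Mll3/4SI library, Irf9 differed between the hashtags. Irf9 in HSC/MPP-like cells was at 27.8 CPM (23.6 to 32.4, 159 UMIs in 208 cells) with Hashtag1 and at 51.7 CPM (43.0 to 61.8, 122 UMIs in 93 cells) with Hashtag2. The Hashtag1 value was near the 24.5 and 27.5 CPM of the 2 hashtags in control, and the Hashtag2 value was above every other sample and hashtag. In granulocyte-like cells Irf9 was at 18.95 and 31.2 CPM, against 13.8 and 14.6 CPM with the hashtags of control, 13.1 and 12.6 with those of Mll3SI, and 18.3 and 16.6 with those of Mll4SI. The log2 ratio of Hashtag2 to Hashtag1 cells of Mll3/4SI was 0.88 (0.55 to 1.25) in HSC/MPP-like, 0.69 (0.58 to 0.86) in granulocyte-like and 0.37 (0.03 to 0.74) in monocyte-like cells.

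Composition differed between these cells too. Clusters 10 and 17 held 14.2% of the 2916 Hashtag1 cells and 36.8% of the 3639 Hashtag2 cells of Mll3/4SI, and the HSC/MPP-like share was 7.13% against 2.56%. The Irf9 difference was also measured inside clusters: Irf9 was higher with Hashtag2 in 13 of 13 clusters (0.22 to 1.11, median 0.70), of which 9 were past the fold. Whether the mix of cells inside a cluster differed between the hashtags was not tested. In cluster 8 it was at 35.1 and 67.8 CPM, and in cluster 5 at 13.5 and 30.2 CPM. The other libraries showed Irf9 higher with Hashtag2 in 7 of 13 clusters (control), 6 of 14 (Mll3SI) and 3 of 12 (Mll4SI), with medians of 0.07, -0.02 and -0.23. Compared with control cells of the same hashtag, Mll3/4SI was higher in 7 of 10 clusters with Hashtag1 (median 0.20, from -0.35 to 0.93, 2 past the fold) and in 8 of 8 with Hashtag2 (median 1.02, from 0.38 to 1.58, 7 past the fold). The hashtag groups had similar depth, with medians of 18938 and 19178 UMIs, and Xist at 1257 and 1461 CPM. What the hashtags marked, and therefore whether this is a difference between animals, was not tested.

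Of the 8 measured members, Irf9 alone was past the fold between the hashtags of Mll3/4SI in HSC/MPP-like cells (background 5.87%) and in granulocyte-like cells (2.03%), and 0 of 8 were in monocyte-like cells (2.9%). Ifnar2, for example, was at 133 and 143 CPM in HSC/MPP-like cells, Jak1 at 128 and 130.2 CPM and Ifngr1 at 119.8 and 137 CPM, each with overlapping intervals. In control the fold was passed by Tyk2 in HSC/MPP-like cells, given above (background 1.21%), and by 0 of 8 members in granulocyte-like (0.425%) and monocyte-like cells (0.545%). In Mll3SI the counts were 0 of 8 in each of the 3 classes (2.21%, 0.185% and 0.744%), as in Mll4SI (0.993%, 0.207% and 0.315%).

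Interferon targets differed between the same cells. Of the 17 listed targets found in the files, 14 had a mean over the hashtags of at least 10 CPM in HSC/MPP-like cells of Mll3/4SI, and 11 of them were higher with Hashtag2 (median log2 ratio 0.68, beside 0.02 over all genes, 4.39% of which were higher). In granulocyte-like cells 9 of 11 were higher (median 1.02, beside -0.04, with 0.814% of all genes higher), and in monocyte-like cells 4 of 6 (median 0.64, with 1.75%). The mean was taken over the same hashtag groups that were compared, so a target could enter through its Hashtag2 level alone. In HSC/MPP-like cells 9 targets reached it in control, 9 in Mll3SI and 9 in Mll4SI. The Mll3/4SI counts and medians are therefore partly set by this selection. Ifi27l2a was at 33.2 CPM with Hashtag1 and 89.5 with Hashtag2 in HSC/MPP-like cells, against 9.08 and 9.24 in control. Isg15, a ubiquitin-like modifier, was at 18.7 and 40.3 CPM there, against 3.82 and 7.77 in control, and at 9.69 and 36.2 CPM in granulocyte-like cells, against 2.65 and 3.01. The Isg15 intervals of the control hashtags in HSC/MPP-like cells (2.61 to 5.40 and 6.10 to 9.75 CPM) did not overlap either. The Hashtag1 cells of Mll3/4SI were thus also above both hashtags of control for these 2 targets, whereas the interval of their Irf9 level in HSC/MPP-like cells, given above, held both control values. Isg15 was higher with Hashtag2 in 13 of 13 clusters. In control HSC/MPP-like cells 3 of 9 targets (Oasl2, Rtp4 and Xaf1) were higher with Hashtag2, as were 0.407% of all genes, and in Mll3SI 1 of 9 (Ifi27l2a) was lower, as were 1.2% of all genes. In Mll4SI 0 of 9 were past the fold.

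**Figure D5:**
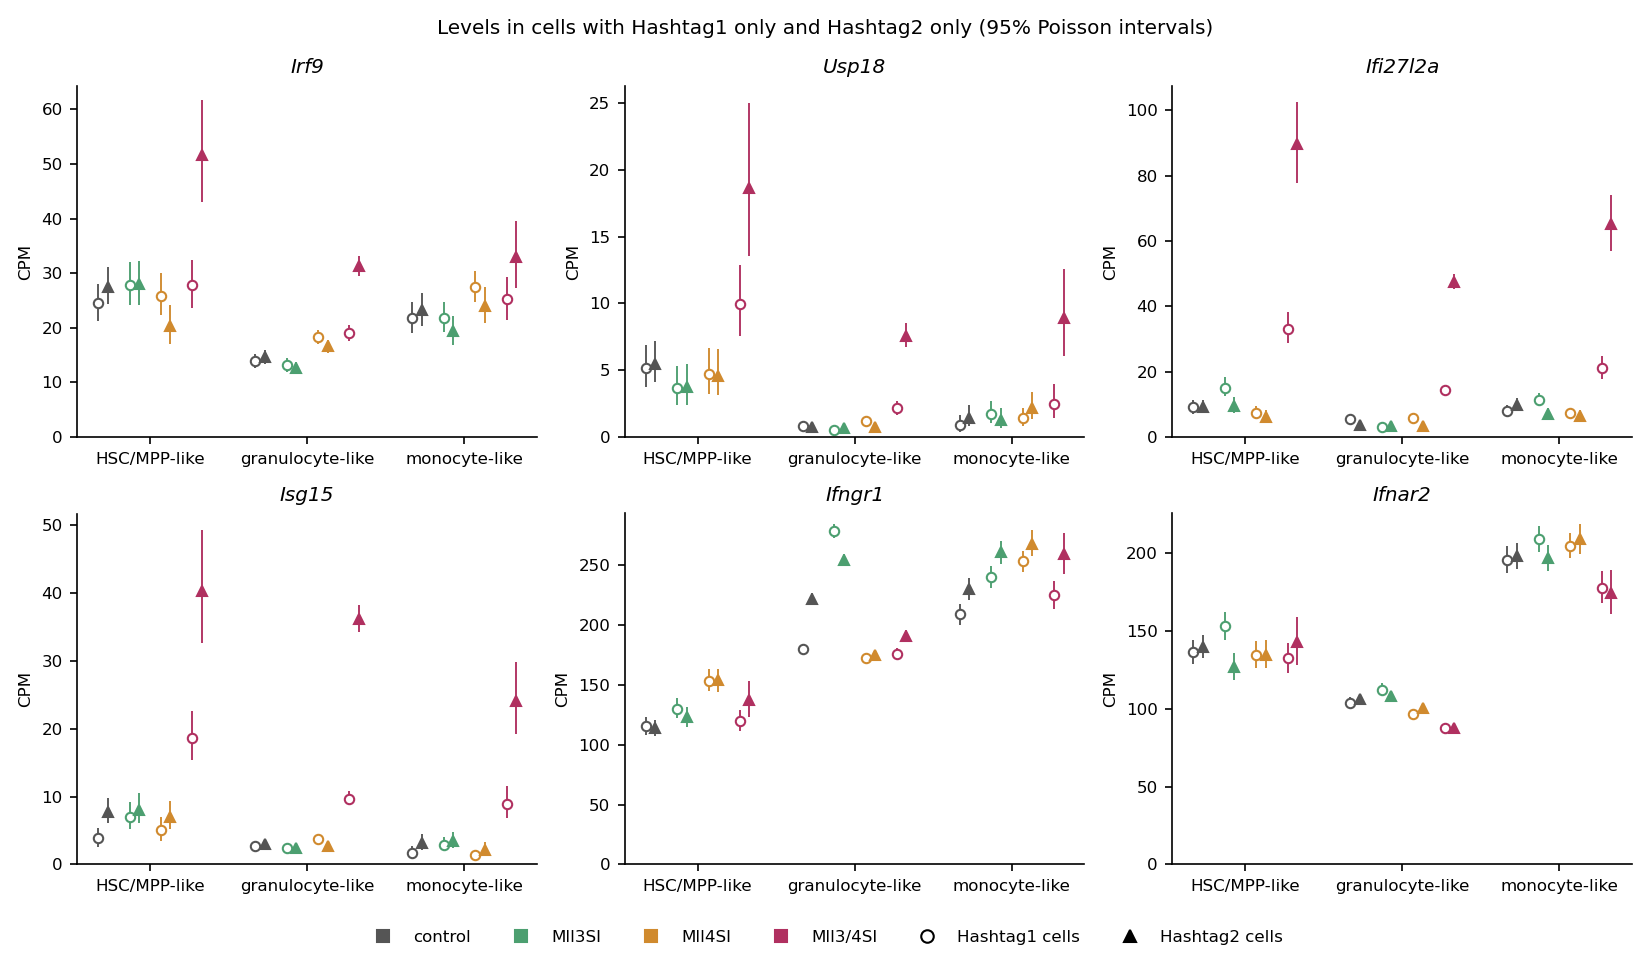
Levels (CPM, axes from 0) of Irf9, Usp18, Ifi27l2a, Isg15, Ifngr1 and Ifnar2 in Hashtag1 cells (open circles) and Hashtag2 cells (filled triangles) of each library, in 3 cell classes, with 95% Poisson intervals. In Mll3/4SI the triangle stands above the circle for the first 4 genes in each class, while Ifnar2 values lie close together.

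The gene of STAT2, which IRF9 binds within ISGF3, was not called where Irf9 was. Stat2 was at 16.25, 14.5, 15.01 and 14.4 CPM in HSC/MPP-like cells and at 15.7, 13.7, 14.55 and 16.7 CPM in granulocyte-like cells. Its ratio for Mll3/4SI was -0.17 and 0.09. It was not called in any library in the 3 large classes. Stat4, the factor of the interleukin-12 receptor, was called lower in Mll3SI granulocyte-like cells (32.4 CPM against 48.15 in control, -0.56).

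Of the IRF genes other than Irf9, 4 of 8 were measured in HSC/MPP- and granulocyte-like cells and 5 in monocyte-like cells. Irf8, a factor of the monocyte lineage, was at 11.8, 20.1, 8.20 and 4.12 CPM in granulocyte-like cells, called higher in Mll3SI (0.72) and lower in Mll3/4SI (-1.32). Irf5 was called lower in Mll3/4SI monocyte-like cells (9.90 CPM against 14.9 in control, -0.54). None of the 4 was called in HSC/MPP-like cells. Irf7, an amplifier of the type I response, was below the 10 CPM mean but was at 2.72, 1.275, 2.09 and 11.3 CPM in HSC/MPP-like cells, and there at 6.63 CPM with Hashtag1 and 23.3 CPM with Hashtag2 of Mll3/4SI.

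Among 12 measured interferon targets in HSC/MPP-like cells, 7 were called higher in Mll3/4SI and 0 lower (median 0.72, beside -0.05 over all genes, 1.64% of which were called higher), with Ifi27l2a at 8.85, 12.01, 6.73 and 49.8 CPM and Isg15 at 5.86, 7.18, 5.99 and 24.7 CPM. Ifi44 (1.52) and Oasl2 (1.02) were among the 7. The 10 CPM mean includes Mll3/4SI, so a target could count as measured through that library alone. Isg15 did so, being below 10 CPM in each other library. Ifi27l2a did so too, since its mean over the other libraries (8.85, 12.01 and 6.73 CPM) was below 10 CPM. The counts and medians for Mll3/4SI are therefore partly set by this selection. In granulocyte-like cells 3 of 7 were higher in Mll3/4SI (Ifi27l2a, Ifitm3 and Ifih1, median 0.41, beside -0.10 and 1.59%), and in monocyte-like cells 2 of 4 (Ifi27l2a and Ifitm3, median 0.64, beside -0.05 and 1.41%). The other libraries had calls in granulocyte-like cells only, among the 3 large classes. In Mll3SI Ifitm3 was called lower (-0.53, with 1.34% of all genes lower). In Mll4SI Ifitm3 was called higher (0.55, with 2.66% of all genes higher) and both Bst2 (-1.02) and Ly6e (-0.59) lower (9.27% of all genes). Of 10 interferon gamma targets, 6 were measured in HSC/MPP-like cells, 3 in monocyte-like cells and 0 in granulocyte-like cells. The 1 call in these classes was Gbp7, lower in Mll4SI monocyte-like cells (-0.57, with 1.48% of all genes lower). Over all kept cells 3 were measured: Gbp3 (-0.70) and Gbp7 (-0.61) were called lower in Mll4SI (6.05% of all genes), and Gbp7 (0.66) and Irgm1 (0.52) higher in Mll3/4SI (2.63%). None of the 21 interferon genes reached 10 CPM, and the most counted of them, Ifnk, had 60 UMIs over all kept cells of the 4 libraries.

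The feedback genes were rare. Socs1 was at 4.21, 5.70, 2.89 and 5.35 CPM in HSC/MPP-like cells, from 79, 85, 43 and 44 UMIs, and the intervals of control and Mll3/4SI overlapped. In cluster 8 it was at 8.08, 9.25, 6.94 and 9.12 CPM, also with overlapping intervals. Its highest class was T/NK-like, at 33.4, 115.5, 97.9 and 81.1 CPM, from 7, 10, 12 and 36 UMIs. Socs1 reached the 10 CPM mean there and was called higher in Mll3SI (1.76), Mll4SI (1.52) and Mll3/4SI (1.26). In those comparisons 4, 6 and 6 of 9 measured members were called, beside 63.3%, 59.1% and 45.8% of all genes. Socs1, whose promoter window is shown above with its overlapping ISRE letters, had a lower hashtag ratio than Irf9 in granulocyte-like cells, and in HSC/MPP-like cells its counts were too few to tell: with Hashtag1 and Hashtag2 of Mll3/4SI it was at 3.72 and 4.13 CPM in granulocyte-like cells (log2 ratio 0.12, -0.20 to 0.50) and at 4.36 and 8.06 CPM in HSC/MPP-like cells (0.76, -0.06 to 1.80), from 25 and 19 UMIs.

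Socs3 was at 1.65, 3.42, 2.56 and 2.68 CPM in HSC/MPP-like cells, from 31, 51, 38 and 22 UMIs, and between 0.258 and 0.416 CPM in granulocyte-like cells. The Mll3SI value came with 1 hashtag: its Hashtag2 cells held 40 UMIs (5.94 CPM) and its Hashtag1 cells 11 UMIs (1.54 CPM), the latter near the 1.91 and 1.575 CPM of the control hashtags. Usp18, the brake of the type I receptor that binds IFNAR2, was also below 10 CPM but was at 5.49, 3.49, 4.24 and 12.3 CPM in HSC/MPP-like cells and at 0.789, 0.619, 0.901 and 5.19 CPM in granulocyte-like cells. In Mll3/4SI it was at 9.95 and 18.7 CPM with Hashtag1 and Hashtag2 in HSC/MPP-like cells. Of 17 further brakes, which include Cish, Socs2 and the phosphatases Ptpn1, Ptpn2 and Ptpn6, 13 were measured in HSC/MPP-like and granulocyte-like cells and 12 in monocyte-like cells, and 0 were called in any library. Among 6 related receptor genes, Ifnlr1, the specific chain of the lambda interferon receptor, was read mostly in granulocyte-like cells. It was at 42.1, 34.2, 45.2 and 29.9 CPM there and at 0.320, 0.0671, 2.09 and 0.243 CPM in HSC/MPP-like cells. Its highest HSC/MPP-like value was in Mll4SI, where the summed granulocyte markers were also highest, and a link between them was not tested. Il10rb, the neighbour of the receptor genes on chromosome 16, was at 50.5, 54.2, 48.0 and 47.6 CPM in HSC/MPP-like cells and was not called in any of the 3 classes.

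Other genes tracked the members over the same 22 points. Irf9 was followed most closely by Btaf1 (r 0.871), Rbm45 (0.861) and Gatad2a (0.859), none of them an interferon target of the list. Genes with a mean below 10 CPM over these points could not appear. Over all kept cells, 7 of the 17 listed targets reached 10 CPM, so the absence of targets says little. Ifnar2 was nearest to Pycard (0.951), Bex6 (0.946) and Csf1r (0.944), the last a monocyte marker, and Jak1 to Rab37 (0.946), Vezf1 (0.922) and Gm20559 (0.915). Ifnar1 was nearest to Gm15563 (0.884), Vrk2 (0.863) and Gm26936 (0.861). Ifngr1 was nearest to Pex2 (0.923), Tbc1d2b (0.915) and Dclre1a (0.904), and Ifngr2 to 5031439G07Rik (0.912), Unc93b1 (0.901) and Arpc4 (0.892). Tyk2 was nearest to Ubald1 (0.898), 1700084C06Rik (0.895) and B4galt7 (0.884), and the second of these is its overlapping antisense gene. Socs1 and Socs3 were below the level needed for this comparison. The correlations are over 8621 genes, carry no test, and their points share libraries and depth.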

How the data were processed

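The deposited matrices hold counts of UMIs per gene and cell from 10x Genomics 3′ v3.1 libraries. Per the file headers and the submitters' processing notes, the authors made these counts with Cell Ranger 7.1.0 on mm10. Strand use, annotation release and filters upstream of the matrices are not given in the sources used here. The matrices also hold counts for 15 antibodies, of which the 2 hashtags were used. The members and gene lists were chosen with earlier results of these data known.

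Cells with at least 500 genes, 1000 UMIs and at most 10% mitochondrial UMIs were kept, and in each library the cells with the highest Scrublet scores (0.8% per 1000 cells) were removed as doublets, 409 to 1001 a library. The cells of the 4 libraries were clustered together without batch correction (scanpy 1.11.5, 2000 variable genes, 30 components, 15 neighbours, leidenalg 0.10.2 at resolution 1, Python 3.11.15, numpy 2.4.6, scipy 1.17.1). A cluster took a class name where at least 3 markers of the class, and 2 more than of any other, were past a log2 fold of 1 and its leading genes did not go against the name. That last rule was tightened after seeing the data, which left cluster 17 unnamed. UMIs were summed by class and library and given as CPM, with exact Poisson intervals. Ratios are log2 of CPM plus 1, and their intervals are exact binomial (Clopper-Pearson) intervals of the 2 counts without the added CPM. No test was made, since cells are not replicates. Cluster comparisons used clusters with at least 50 cells in both libraries and left out cluster 21, which was shallow. Hashtag thresholds of 118 and 334 UMIs were set at the gap in the deposited counts. Cells with both hashtags (154 to 566 a library) stayed in the class values and were left out of the hashtag comparisons. All members are named. From the other lists Stat2, Usp18 and Il10rb are always named, as are up to 4 genes a list with the largest ratios past the fold, and for each member the 3 genes nearest in Pearson r. One listed gene is not reported here. Irf7, the hashtag comparisons and the targets named in them were chosen after their values were seen. Gene positions matched 32158 of 32285 identifiers.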

Additional observations from a re-analysis of the deposited data

How the results depend on the processing

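No paired analysis was possible because each group is 1 library and the results come from no test. The alternatives were median-of-ratios scaling, 5 CPM added, no CPM minimum, and a mean over cells each scaled to 1000000 UMIs. Also used were doublets kept, resolution 2, at most 5% mitochondrial UMIs, cells of 1 hashtag, and cells thinned to 3000 UMIs. After seeing the data, 2 others were added: cluster 17 counted as HSC/MPP-like, and granulocyte-like cells limited to clusters 5 and 7, the Elane-led clusters with at least 100 control cells (cluster 25, also led by Elane, has 20). Members called in Mll3/4SI HSC/MPP-like cells, 1 as reported, were 0 with resolution 2, doublets kept, median-of-ratios scaling or 5 CPM added, 2 with thinning, Hashtag2 cells or the mean over cells, and 3 with cluster 17, where Ifngr2 was at -1.33 and Irf9 at 0.63. In Mll4SI HSC/MPP-like cells, 1 as reported, they were 0 with resolution 2 and 2 with thinning, Hashtag1 cells or doublets kept. In Mll3SI HSC/MPP-like cells, 0 as reported, they were 1 with thinning (Ifngr2 at -0.73), Hashtag1 cells (Tyk2 at -0.72) or no CPM minimum (Socs3 at 0.74). In granulocyte-like cells the 1 call in Mll3/4SI, Irf9, was 0 with Hashtag1 cells (ratio 0.43) and in clusters 5 and 7 (0.41), and the 0 in Mll3SI became 1 with Hashtag1 cells (Ifngr1 at 0.63). No alternative changed the 0 in Mll4SI granulocyte-like cells, and no called ratio changed sign in any alternative. Irf9 in Mll3/4SI ranged from 0.17 (Hashtag1) to 0.89 (Hashtag2) in HSC/MPP-like cells and from 0.41 to 1.04 in granulocyte-like cells. The cause of these shifts was not tested. Thinning raised the share of all genes past the fold in Mll3/4SI HSC/MPP-like cells from 3.16% to 15.2%, and counting cluster 17 in raised it to 11.3%. In granulocyte-like cells the share in Mll4SI, 11.9%, was 19.9% with doublets kept and 3.81% in clusters 5 and 7, and in Mll3SI, 2.61%, it was 7.32% with Hashtag1 cells. Median-of-ratios scaling moved the median of all genes in Mll3/4SI granulocyte-like cells from -0.10 to 0.01, where Irf9 was then at 0.85. Depth limits Socs1 and Socs3, whose summed counts in HSC/MPP-like cells were 22 to 85 UMIs a library.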
